A study of Homo sapiens with 4 samples.

Results

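The genes described here were 54 human genes of DNA repair and of the DNA damage checkpoint, taken by symbol from a list. That list was chosen with earlier results of these data known. They were followed in RNA-seq read counts from SiHa and MS751, established cell lines that the labels describe as cervical squamous cell carcinoma. Each line had 1 library of cells transfected with siDDX24-1, a small interfering RNA against DDX24, and 1 library of cells transfected with a control siRNA (siControl). The siDDX24-1 cells were labelled as DDX24 knockdowns and the siControl cells as wild type. RNA was taken on day 2 after transfection of 5 µL of siRNA at 20 µM with 5 µL of a lipid reagent in 2 mL of medium with 10% serum, in all 4 groups. All 54 genes were listed in both tables, among 12189 genes compared in SiHa, 12036 in MS751 and 11112 in both. The list held 15 genes of homologous recombination, 7 of checkpoint signalling, 10 of the Fanconi anaemia pathway, 3 RecQ helicase and EXO1 genes, 4 of mismatch repair, 8 of nucleotide excision repair, 5 of base excision and single-strand break repair and 2 of end joining.

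Cells keep several repair systems for different lesions. Broken chromosomes are rejoined by end joining or copied from the sister chromatid by homologous recombination, crosslinked strands are unhooked by the Fanconi anaemia proteins, and damaged or mispaired bases are removed by the excision and mismatch systems. The kinases ATM and ATR sense breaks and stalled replication forks and hold the cell cycle through CHEK2 and CHEK1. Many genes of recombination, the Fanconi pathway and the ATR branch are transcribed mainly in S phase, when replication forks meet damage. DDX24 is a DEAD-box RNA helicase, and the series title places it in lymph node metastasis of cervical carcinoma.

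Counts summed to 20117442 in the SiHa siDDX24-1 library and 17707551 in the SiHa siControl library, and to 14664797 in the MS751 siDDX24-1 library and 13160487 in the MS751 siControl library. DDX24 itself had 575 counts in the siDDX24-1 library against 3464 in the siControl library of SiHa (6.55-fold lower), and 993 against 2072 in MS751 (2.30-fold lower). Epithelial markers were partly absent: 6 of 10 were listed in SiHa and 3 of 10 (KRT8, KRT18 and EPCAM) in MS751, and KRT5, KRT6A, KRT14 and TP63 were listed in neither. The listed epithelial markers summed to 2944 CPM (counts scaled to a common library size) in the siDDX24-1 library and 3361 CPM in the siControl library of SiHa, and to 160 and 128 CPM in MS751. Of markers of other cells, SiHa listed 2 of 9 leukocyte, 1 of 8 endothelial and 3 of 8 fibroblast genes, and MS751 listed 1, 1 and 5. The leukocyte genes summed to 242 CPM with siDDX24-1 and 220 CPM with siControl in SiHa, of which CD14 had 235 and 213. In MS751 they summed to 6.10 and 3.78 CPM. The endothelial gene had 13.7 and 12.4 CPM in SiHa (PECAM1) and 35.4 and 46.1 CPM in MS751 (FLT4). The fibroblast genes summed to 513 CPM with siDDX24-1 and 460 CPM with siControl in MS751, and to 10.8 and 21.3 CPM in SiHa. In MS751 COL3A1 made up most of the sum, while COL1A1 had 23.7 CPM with siDDX24-1 and 86.2 CPM with siControl (log2 fold -1.86), and in SiHa its log2 fold was -1.16. The part of these markers in the folds below was not tested. Only 1 siRNA against DDX24 was used, so an effect of its sequence on other transcripts and an effect of losing DDX24 cannot be told apart. The libraries came from bulk cultures, in which fewer cells of a kind and less RNA per cell cannot be told apart either.

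With 1 library per group there was no test within a line. All folds divide the siDDX24-1 library by the siControl library and are log2 values, from CPM scaled by TMM with a prior count of 1. Each interval is the 95% interval of a ratio of counts and covers counting error only, not the spread between cultures. In this sense a gene "stood above 0" or "stood below 0" where its whole interval did.

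In MS751 most of the 54 genes were higher in the siDDX24-1 library. The median log2 fold was 0.37, against 0.00081 over all genes of the table. Folds were above 0 for 48 members (88.9%) and below 0 for 6, where 50% of all genes were above 0, and these splits became 46 and 8 with upper-quartile scaling. There were 39 members (72.2%) whose interval stood above 0, against 36.4% of all genes, and 2 members, FANCL and ERCC1, that stood below 0, against 36.1% of all genes. At least 2-fold higher were 6 members (11.1%, against 3.74% of all genes), namely APEX1, FANCB, EXO1, ATRIP, FANCI and FANCD2. No member was at least 2-fold lower, where 8.55% of all genes were. With a threshold of 1.5-fold, 19 members were higher (35.2%, against 13.7% of all genes) and none was lower (against 18.4%).

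In SiHa the same genes stayed close to their siControl level. The median log2 fold was 0.078, against -0.0041 over all genes, and members ran between -0.36 (RAD50) and 0.64 (RAD54B). Folds were above 0 for 35 members (64.8%) and below 0 for 19, where 49.6% of all genes were above 0. That split was 27 and 27 when library totals replaced TMM, a scaling that moved the median of all SiHa genes by -0.061. Intervals stood above 0 for 18 members (33.3%, against 30.2% of all genes) and below 0 for 9 (16.7%, against 30% of all genes). No member was 2-fold higher (against 1.46% of all genes) or 2-fold lower (against 3.05%). RAD54B alone was at least 1.5-fold higher (against 4.65%), and none was 1.5-fold lower (against 10%).

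**Figure D1:**
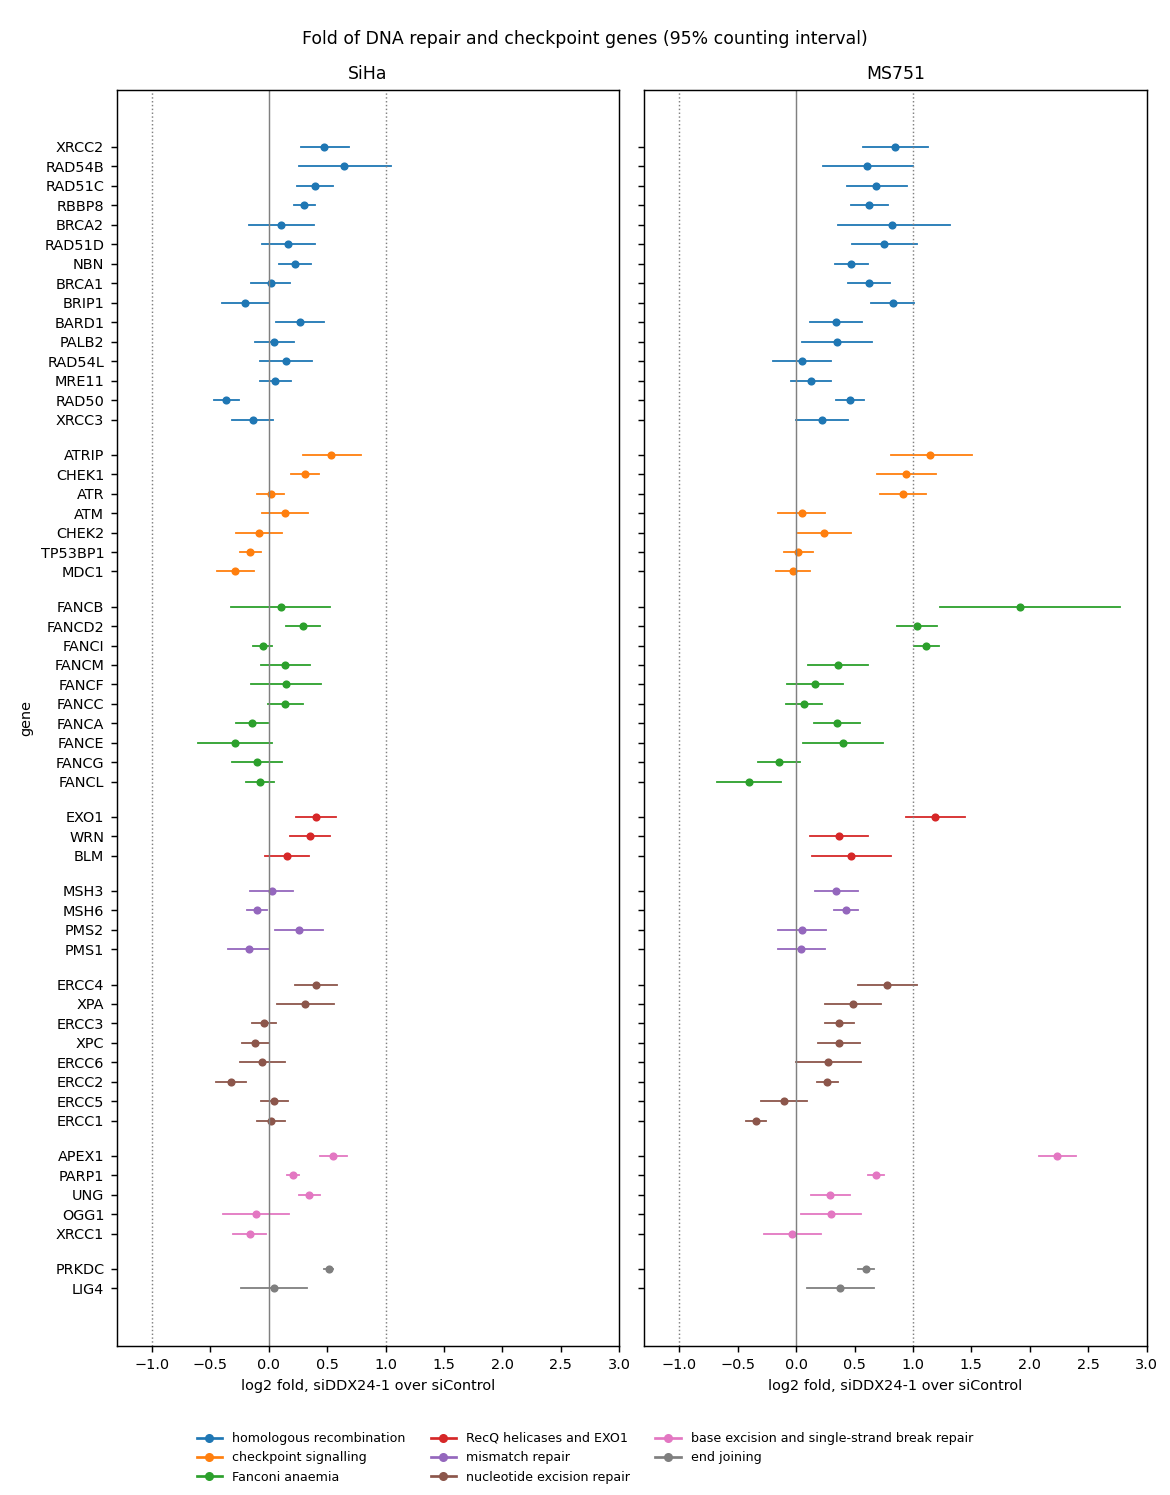
Log2 fold of each of the 54 genes, siDDX24-1 over siControl, in SiHa (left) and MS751 (right), coloured by pathway; points are the folds, bars the 95% counting intervals, and dotted lines mark 2-fold. In MS751 48 of the points lie right of 0 and 6 lie at or beyond the dotted line, while in SiHa all lie between -0.36 and 0.64.

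All 15 genes of homologous recombination were above 0 in MS751 (against 50% of all genes), 12 of them with the interval above 0 (against 36.4%), and the median fold was 0.61. RAD54L was the lowest of them at 0.052. The 33 other recombination genes listed beside the 54 did not share this in MS751, where 16 were above 0 (48.5%). Their intervals stood above 0 for 10 and below 0 for 10 (against 36.4% and 36.1% of all genes). In SiHa 12 of the 15 were above 0 (against 49.6% of all genes), 6 had an interval above 0 (against 30.2%), a share not far from that of all genes, and the median was 0.15. With library totals in place of TMM 9 were above 0 in SiHa, and with a trend on GC content removed 14 were above 0 in MS751 and 10 in SiHa.

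BRCA2, a mediator of strand exchange on single-stranded DNA, had 112 counts in the siDDX24-1 library and 57 in the siControl library of MS751, and 239 and 204 in SiHa. Its log2 fold was 0.82 in MS751 (interval 0.36 to 1.32) and 0.11 in SiHa (interval -0.17 to 0.38). BRCA1, a scaffold and ubiquitin ligase of break repair, had 695 counts in the siDDX24-1 library and 409 in the siControl library of MS751, and 623 and 566 in SiHa, with log2 folds of 0.62 and 0.016. Both genes were thus higher in the MS751 knockdown library, while their SiHa libraries differed by less than counting error. BARD1, the partner of BRCA1, stood above 0 in both lines at 0.34 in MS751 and 0.27 in SiHa, and PALB2, which bridges BRCA1 and BRCA2, stood above 0 in MS751 at 0.35 and had 0.047 in SiHa.

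XRCC2, XRCC3, RAD51C and RAD51D act in strand exchange. XRCC2 had the highest mean fold of the pathway, with 330 counts in the siDDX24-1 library and 166 in the siControl library of MS751 and 488 and 322 in SiHa, so that its folds were 0.84 and 0.48. RAD51C had folds of 0.69 in MS751 and 0.39 in SiHa, and RAD51D 0.75 and 0.17. XRCC3 had the lowest mean of the pathway: 388 counts in the siDDX24-1 library and 302 in the siControl library of MS751 (0.22) and 539 and 545 in SiHa (-0.14), with both intervals spanning 0. RAD54B, a motor protein that remodels DNA during strand exchange, was the one member past 1.5-fold in both lines. It had 157 counts in the siDDX24-1 library and 93 in the siControl library of MS751 (0.61), and 150 and 88 in SiHa (0.64).

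Break ends are prepared by the MRE11, RAD50 and NBN complex and by RBBP8. RBBP8, also called CtIP, had 883 counts in the siDDX24-1 library and 519 in the siControl library of MS751 and 2303 and 1713 in SiHa, with folds of 0.62 and 0.30. NBN stood above 0 in both lines (0.47 in MS751, 0.22 in SiHa), and MRE11 had 0.13 and 0.055 with intervals spanning 0. RAD50 had folds of opposite sign in the lines. There were 1436 counts in the siDDX24-1 library and 944 in the siControl library of MS751, a fold of 0.46 (interval 0.34 to 0.58). In SiHa it had 1335 and 1577 counts, a fold of -0.36 (interval -0.47 to -0.26), the lowest of all members there. BRIP1, a helicase bound by BRCA1, likewise had 721 counts in the siDDX24-1 library and 368 in the siControl library of MS751 (0.83, interval 0.64 to 1.01), against 400 and 423 in SiHa (-0.20, interval -0.40 to -0.0027).

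Among checkpoint genes, those of the ATR branch had the higher folds in MS751. ATRIP, which recruits ATR to coated single-stranded DNA, had 241 counts in the siDDX24-1 library and 98 in the siControl library, a log2 fold of 1.15 (interval 0.81 to 1.51). It lies on chromosome 3 from 48446710 to 48467645 (plus strand, GRCh38), and its exons overlap those of TREX1. CHEK1, the kinase activated by ATR, had 412 and 194 counts (0.94, interval 0.69 to 1.20), and ATR had 659 and 317 counts (0.91, interval 0.72 to 1.11). These last 2 lay just under the 2-fold threshold, and FANCD2 at 1.03 lay just over it. In SiHa ATRIP had 354 counts in the siDDX24-1 library and 224 in the siControl library (0.54), CHEK1 had 1388 and 1030 (0.31) and ATR had 1329 and 1208 (0.015). ATRIP and CHEK1 therefore stood above 0 in both lines, and ATR did so in MS751.

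The other kinase pair, ATM and CHEK2, had log2 folds of 0.047 and 0.24 in MS751 and 0.14 and -0.082 in SiHa. MDC1 and TP53BP1, which bind marked chromatin at breaks, were the lowest of the 7 checkpoint genes. MDC1 had 808 counts in the siDDX24-1 library and 747 in the siControl library of MS751 (-0.030) and 621 and 697 in SiHa (-0.29, interval -0.45 to -0.13). TP53BP1 had 1128 and 1009 counts in MS751 (0.018) and 1999 and 2049 in SiHa (-0.16, interval -0.25 to -0.069). The checkpoint median was 0.24 in MS751 and 0.015 in SiHa, where library totals turned it to -0.046, and no test of the difference between the branches was made.

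**Figure D2:**
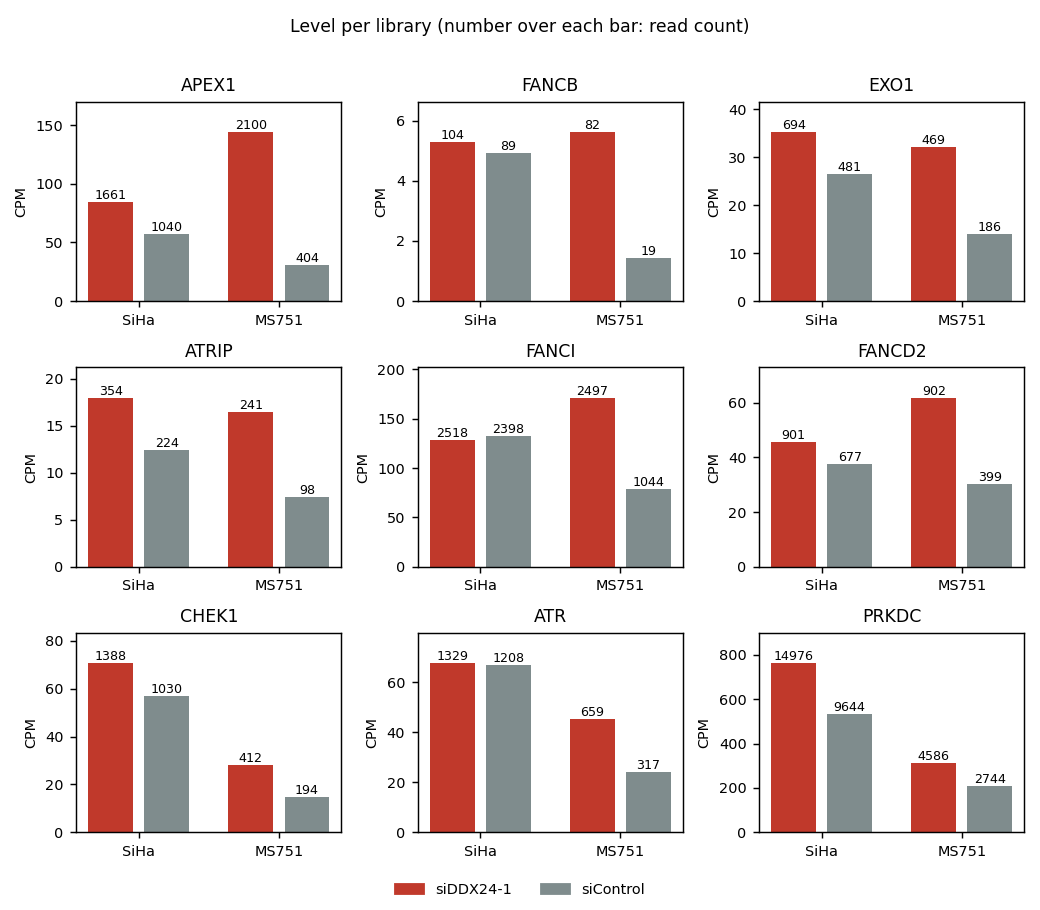
Level in CPM of 9 genes in each of the 4 libraries, with the read count over each bar; siDDX24-1 is red and siControl grey, and each panel has its own axis from 0. For FANCB, ATR and FANCI the SiHa bars are of near equal height and the MS751 siControl bar is the lowest of the 4.

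The Fanconi anaemia genes held 3 of the 6 members past 2-fold in MS751, which is 30% of the 10 genes (against 3.74% of all genes). They held 1 of the 2 members that stood below 0, so 1 gene of 10 (against 36.1% of all genes). FANCB, a subunit of the ubiquitin ligase core complex, lies on the X chromosome from 14835961 to 14873069 (minus strand). It had 82 counts in the siDDX24-1 library and 19 in the siControl library of MS751, a log2 fold of 1.92 with a wide interval of 1.23 to 2.77 because of the 19 counts. In SiHa it had 104 and 89 counts (0.10, interval -0.32 to 0.53). The MS751 siControl library was thus the low one, and the other 3 libraries lay between 4.92 and 5.62 CPM on their line's own scale, against 1.44 CPM in it.

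FANCI and FANCD2 form the pair that the core complex ubiquitinates at crosslinks. FANCI (chromosome 15, 89243949 to 89317261, plus strand) had 2497 counts in the siDDX24-1 library and 1044 in the siControl library of MS751, a fold of 1.11 (interval 1.01 to 1.22). FANCD2 (chromosome 3, 10026414 to 10101930, plus strand) had 902 and 399 counts there, a fold of 1.03 (interval 0.86 to 1.21). In SiHa they parted: FANCD2 had 901 counts in the siDDX24-1 library and 677 in the siControl library (0.29, interval 0.14 to 0.44), and FANCI had 2518 and 2398 (-0.052, interval -0.13 to 0.029). FANCL, the catalytic ubiquitin ligase subunit, was the lowest member in MS751, with 201 counts in the siDDX24-1 library and 241 in the siControl library (-0.40, interval -0.68 to -0.13), and had 1127 and 1092 in SiHa (-0.077). FANCA, of the core complex, stood above 0 in MS751 with 522 and 371 counts (0.35) and below 0 in SiHa with 904 and 918 (-0.14). The remaining 5 (FANCC, FANCE, FANCF, FANCG and FANCM) had folds between -0.15 and 0.40 in MS751 and between -0.29 and 0.145 in SiHa. The pathway median was 0.35 in MS751 and 0.024 in SiHa, where library totals turned it to -0.037.

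E2F factors drive many genes of S phase, and their sites are often written with an 8-letter core. The 4 cores TTTGGCGC, TTTCCCGC, TTTGCCGC and TTTCGCGC were searched on both strands in the 250 bases before each RefSeq gene start (GRCh38.p14). They differ in letters 4 and 5, so that no position can match more than 1 of them on the same strand, although matches on opposite strands may overlap. Of the 54 genes, 49 had a promoter entry, and 5 of these held a match (10.2%): FANCA, FANCC, MSH3, PMS2 and XPC. The share was 4.73% of the 9149 matched genes of both tables, 2.79% of all 27305 promoters, and 40% of the 25 matched replication genes. Neither FANCB nor any of the 4 other matched members past 2-fold in MS751 had one. The windows of FANCB and FANCC, both from the Fanconi list, are shown. They were the windows free of annotated exons that held a match or belonged to a member past 2-fold in MS751. FANCB had folds of 1.92 in MS751 and 0.10 in SiHa and no match. FANCC had 0.064 in MS751, 0.14 in SiHa and 2 matches, in capitals, and was the lowest Fanconi gene in neither line. Both windows are RefSeq sequences, at chrX:14873070-14873319 and chr9:95317710-95317959, on the minus strand and written in the direction of transcription.
FANCB: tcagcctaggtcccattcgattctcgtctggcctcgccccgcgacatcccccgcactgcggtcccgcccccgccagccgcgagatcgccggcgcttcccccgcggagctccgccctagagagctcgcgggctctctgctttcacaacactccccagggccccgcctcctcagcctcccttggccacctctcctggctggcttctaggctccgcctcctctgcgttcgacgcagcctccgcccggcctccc
FANCC: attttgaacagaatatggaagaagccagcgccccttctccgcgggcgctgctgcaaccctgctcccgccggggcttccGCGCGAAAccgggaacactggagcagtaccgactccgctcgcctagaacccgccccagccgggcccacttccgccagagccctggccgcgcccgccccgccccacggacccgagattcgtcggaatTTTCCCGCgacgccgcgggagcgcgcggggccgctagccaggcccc
The FANCC matches began 172 and 46 bases before the start. The 5 members with a match had a median fold of 0.34 in MS751 and 0.023 in SiHa, and the 44 without had 0.37 and 0.052. Over all genes the order was the other way, with medians of 0.12 in MS751 and 0.032 in SiHa for genes with a match, and 0.0075 and 0.0025 for those without. A match describes these letters only, and its absence does not tell whether a gene has an E2F site. Other forms of the site and positions outside the 250 bases were not searched.

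EXO1, the exonuclease that lengthens resected ends and also serves mismatch repair, had 469 counts in the siDDX24-1 library and 186 in the siControl library of MS751 (1.19, interval 0.94 to 1.44), and 694 and 481 in SiHa (0.41, interval 0.24 to 0.58). It lies on chromosome 1 from 241847967 to 241895148 (plus strand) and overlaps no other coding gene. EXO1 was higher in the knockdown library of both lines, by more in MS751. The RecQ helicases BLM and WRN, which unwind recombination intermediates, were also above 0 in both. WRN had folds of 0.37 in MS751 and 0.35 in SiHa. BLM had 187 counts in the siDDX24-1 library and 122 in the siControl library of MS751 (0.47) and 528 and 435 in SiHa (0.16, interval -0.029 to 0.34).

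The 4 mismatch repair genes had the lowest median in both lines, 0.20 in MS751 and -0.038 in SiHa, although in SiHa the nucleotide excision genes lay near them. MSH3, which recognises longer loops, had 592 counts in the siDDX24-1 library and 423 in the siControl library of MS751 (0.34) and 521 and 471 in SiHa (0.023). MSH6, which recognises single mispairs, had 1916 and 1289 counts in MS751 (0.43, interval 0.33 to 0.53) and 2229 and 2191 in SiHa (-0.098, interval -0.18 to -0.012). PMS1 had 437 and 384 counts in MS751 (0.043) and 539 and 558 in SiHa (-0.17), with both intervals spanning 0. PMS2, an endonuclease of mismatch repair, had 0.051 in MS751 and 0.26 in SiHa.

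In nucleotide excision repair 6 of 8 genes stood above 0 in MS751 (against 36.4% of all genes) and the median was 0.32. In SiHa 2 stood above 0 (against 30.2%) and 2 below 0 (against 30%), and the median was -0.011. ERCC4 (XPF) and ERCC1 encode the subunits of 1 nuclease and had the highest and the lowest fold of these 8 genes in MS751. ERCC4 had 372 counts in the siDDX24-1 library and 196 in the siControl library of MS751 (0.78, interval 0.53 to 1.04) and 612 and 425 in SiHa (0.40). ERCC1 had 1942 and 2232 counts in MS751 (-0.34, interval -0.43 to -0.26) and 1179 and 1067 in SiHa (0.021). POLR1G, whose exons overlap those of ERCC1, had 233 and 106 counts in MS751 (0.99).

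XPA, the damage verifier, stood above 0 in both lines (0.48 in MS751, 0.31 in SiHa). XPC, the damage sensor, had 625 counts in the siDDX24-1 library and 440 in the siControl library of MS751 (0.36) and 1256 and 1249 in SiHa (-0.11), where its interval ended just under 0 at -0.00049. ERCC2, the XPD helicase, had 2174 and 1636 counts in MS751 (0.27, interval 0.17 to 0.36) and 893 and 1026 in SiHa (-0.32, interval -0.45 to -0.19). ERCC3, the XPB helicase of the same complex, had folds of 0.37 and -0.043, ERCC6, which frees stalled RNA polymerase for repair, had 0.27 and -0.054, and the nuclease ERCC5 had -0.11 and 0.048, MS751 before SiHa.

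APEX1, the main endonuclease at abasic sites in base excision repair, had the highest fold of all 54 genes in MS751. It had 2100 counts in the siDDX24-1 library and 404 in the siControl library, 144 against 30.6 CPM, a log2 fold of 2.23 (interval 2.08 to 2.39) and 4.70-fold higher. In SiHa it had 1661 and 1040 counts, a fold of 0.55 (interval 0.44 to 0.67). The gene (ENSG00000100823) lies on chromosome 14 from 20455191 to 20457772 (plus strand, GRCh38), and its exons overlap those of PIP4P1. PIP4P1 had 336 counts in the siDDX24-1 library and 893 in the siControl library of MS751 (-1.55) and 436 and 525 in SiHa (-0.39). OSGEP, on the other side of APEX1, had 273 and 375 counts in MS751 (-0.60) and 641 and 528 in SiHa (0.16). In MS751 both neighbours were thus lower in the library in which APEX1 was higher. The way shared positions were counted is not stated by the labels or notes.

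PARP1, the sensor of single-strand breaks, had 4865 counts in the siDDX24-1 library and 2741 in the siControl library of MS751 (0.68) and 6489 and 5169 in SiHa (0.21). UNG, which removes uracil, stood above 0 in both lines at 0.29 in MS751 and 0.35 in SiHa, and OGG1, which removes oxidised guanine, had 0.29 and -0.11. The scaffold XRCC1 was the lowest of these 5, with 298 and 276 counts in MS751 (-0.032) and 808 and 832 in SiHa (-0.16). In end joining PRKDC, the catalytic subunit of DNA-dependent protein kinase, had 4586 counts in the siDDX24-1 library and 2744 in the siControl library of MS751 (0.60, interval 0.53 to 0.67). In SiHa it had 14976 and 9644 (0.51, interval 0.48 to 0.55), so its folds were close in both lines. LIG4, the ligase of that pathway, had 251 and 175 counts in MS751 (0.38) and 221 and 197 in SiHa (0.043).

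The lines were then read together. Intervals stood above 0 in both lines for 17 members (31.5%, against 18.3% of the 11112 genes in both tables), and below 0 in both for none (against 16.8%). The 17 were BARD1, RAD51C, XRCC2, RAD54B, RBBP8, NBN, ATRIP, CHEK1, FANCD2, WRN, EXO1, XPA, ERCC4, APEX1, UNG, PARP1 and PRKDC. They stood below 0 in SiHa and above 0 in MS751 for 6 members (11.1%, against 5.98% of all genes), which were BRIP1, RAD50, FANCA, MSH6, XPC and ERCC2, and the other way round for none (against 6.23%). The fold was higher in MS751 than in SiHa for 44 members (81.5%, against 53.2% of all genes). It was higher by over 0.5 for 16 members (29.6%, against 18.7% of all genes), and lower by over 0.5 for none (against 17.1%). With 1 library per group this difference between lines was not tested.

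**Figure D3:**
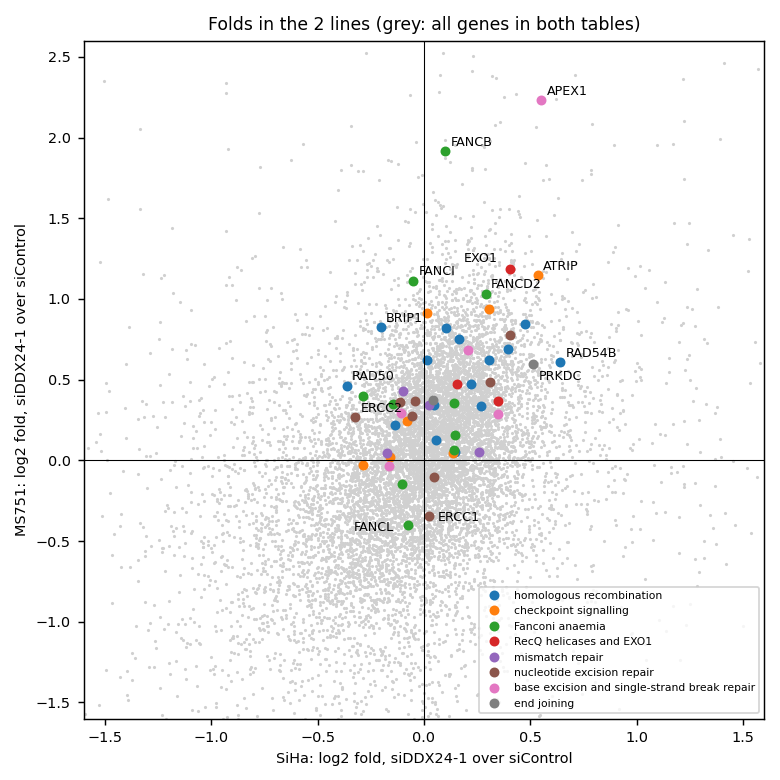
Log2 fold in SiHa (horizontal) against log2 fold in MS751 (vertical), siDDX24-1 over siControl, for the 54 genes (coloured by pathway) over all genes in both tables (grey; genes beyond the axes are not drawn). Most coloured points lie above 0 on the vertical axis, and 44 of 54 have a higher fold in MS751 than in SiHa.

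To ask for a change shared by the lines, edgeR's quasi-likelihood test was fitted over all 4 libraries with the line as a block, which leaves 1 residual degree of freedom. At a Benjamini-Hochberg adjusted p of 0.05 it called no member higher or lower, where 2 of all genes were higher (0.018%) and 3 lower (0.027%). At an unadjusted p under 0.05 it held 7 members, all higher (13%, against 4.34% of all genes), and none lower (against 8.3%). These were XRCC2, ATRIP, CHEK1, FANCD2, EXO1, APEX1 and PRKDC. APEX1 had the smallest, with a common log2 fold of 1.37 ± 0.39 (SE) and an edgeR adjusted p of 0.301. For EXO1 the common log2 fold was 0.77 ± 0.28 (SE, edgeR adjusted p = 0.348), and for PRKDC 0.54 ± 0.21 (SE, edgeR adjusted p = 0.368). limma called no member at the adjusted threshold, and at an unadjusted p under 0.05 it held 7 members, all higher (against 4.73% of all genes higher and 8.47% lower). DESeq2 called APEX1 alone among the members (adjusted p = 0.0454), beside 0.239% of the genes it adjusted called higher and 0.652% lower, and at an unadjusted p under 0.05 it held 3 members, all higher (against 3% of all genes higher and 6.65% lower). Over all alternatives to the edgeR fit, the adjusted p of APEX1 lay between 0.0454 (DESeq2) and 0.482 (GC trend removed). With 1 library per group, the lines stood in for replicates in these tests. The spread behind the p-values was the disagreement of the folds between the lines, pooled in part over all genes. No spread between repeat libraries of a line enters it.

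In MS751 the 121 other repair and checkpoint genes that were listed beside the 54 were more evenly spread around 0 than the 54. Both lists were chosen with earlier results of these data known. The median fold of the 121 was 0.13 in MS751, with 71 above 0 (58.7%, against 50% of all genes and 88.9% of the 54). In SiHa it was 0.061, with 72 above 0 (59.5%, against 49.6% of all genes and 64.8% of the 54). With the GC trend removed, the median in SiHa was 0.079 for the 121 and 0.042 for the 54. Past 2-fold in MS751 were 8 with higher counts (6.61%, against 3.74% of all genes) and 7 with lower counts (against 8.55% of all genes). CDC25A, the phosphatase that CHEK1 acts on, was the highest of them there, with 758 counts in the siDDX24-1 library and 192 in the siControl library (1.83), and EME2, a nuclease subunit, the lowest with 456 and 1601 (-1.95). Past 2-fold in SiHa were 2 higher (1.65%, close to the 1.46% of all genes) and 2 lower (against 3.05% of all genes). BRCC3 was the highest (586 and 255 counts, 1.08) and RHNO1 the lowest (353 and 813 counts, -1.32). RHNO1 helps activate ATR, and BRCC3 trims ubiquitin at breaks. SHLD2, of the shieldin complex that limits resection, was past 2-fold in both lines, with 962 counts in the siDDX24-1 library and 416 in the siControl library of MS751 (1.07) and 654 and 292 in SiHa (1.04). By role, the 22 other checkpoint genes had medians of 0.52 in MS751 and 0.21 in SiHa. The 33 other recombination genes had -0.033 and -0.050, in that order. Medians were 0.29 and -0.24 for the 9 other Fanconi genes, and -0.062 and 0.11 for the 16 other nucleotide excision genes. The 21 other base excision genes had 0.17 and 0.022, and the 8 other end joining genes 0.21 and 0.27. The 11 translesion and direct reversal genes had 0.078 and 0.067, and the 1 other mismatch gene (MLH3) -1.585 and 0.12.

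Genes of DNA replication had higher folds than the repair genes in MS751. The 31 listed had a median log2 fold of 0.70 there and 0.11 in SiHa. In MS751 28 of them were above 0 (90.3%, against 50% of all genes) and 7 at least 2-fold higher (22.6%, against 3.74%). Their summed level was 3109 CPM in the siDDX24-1 library and 1826 CPM in the siControl library of MS751, and 4450 and 3888 CPM in SiHa. The 54 repair genes summed to 2955 and 2139 CPM in MS751 and 3280 and 2921 CPM in SiHa. PRKDC alone had 314 and 208 CPM of these sums in MS751 and 760.5 and 533.2 CPM in SiHa. The median fold of the 54 in SiHa was 0.078. The 13 genes of the E2F family, its partners and the pocket proteins had medians of 0.40 in MS751 and 0.24 in SiHa. The part of the S phase programme in the folds of the repair genes was not tested.

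**Figure D4:**
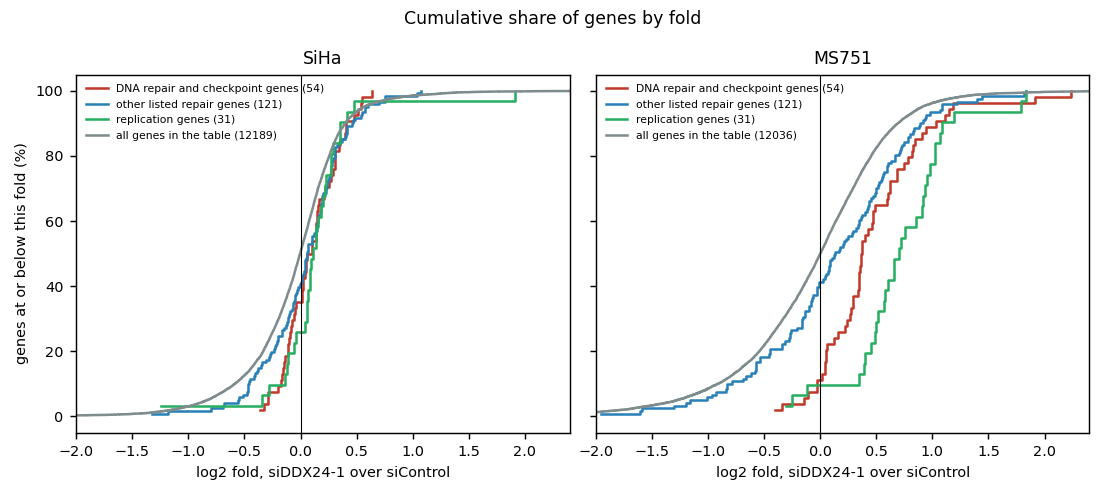
Share of genes (%) at or below each log2 fold, siDDX24-1 over siControl, for the 54 genes, 121 other listed repair genes, 31 replication genes and all genes of the table, in SiHa (left) and MS751 (right). In MS751 the curve of the 54 genes (median 0.37) runs between those of the other repair genes (0.13) and of the replication genes (0.70), and in SiHa the curves lie close together.

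On 1 scale for all 4 libraries, the siControl levels of the 54 genes tended to be higher in SiHa than in MS751. With siDDX24-1, 26 members were higher in SiHa (against 49.9% of all genes), and the median log2 ratio of SiHa over MS751 was -0.015. With siControl, 37 were higher in SiHa (against 51.1% of all genes), 15 of them at least 2-fold (against 14.6%), and the median was 0.44. FANCB had 5.62 CPM in SiHa and 5.57 in MS751 with siDDX24-1, and 5.27 and 1.45 with siControl. CHEK1 remained apart, with 74.9 CPM in SiHa and 28.0 in MS751 with siDDX24-1, and 61.0 and 14.8 with siControl. ERCC1 had the lowest ratio of SiHa over MS751 among siControl levels, with 63.7 CPM in SiHa and 132 in MS751 with siDDX24-1, and 63.2 and 170 with siControl. The MS751 siControl library enters both these ratios and the MS751 folds, so they are 1 set of values seen from a different side.

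Per kilobase of exon, the levels of members spanned a wide range in each library. In the MS751 siDDX24-1 library APEX1 was the highest at 76.3 CPM per kb, followed by PARP1 at 46.5, and in the MS751 siControl library ERCC1 led with 30.3, before PARP1 with 28.9. In the SiHa siDDX24-1 library PRKDC led with 49.3 CPM per kb, and in the SiHa siControl library PARP1 with 39.9. The lowest level was that of BRCA2 in MS751, 0.625 with siDDX24-1 and 0.351 with siControl. The median of members was 5.62 CPM per kb with siDDX24-1 and 3.83 with siControl in MS751, and 5.54 and 5.26 in SiHa.

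Folds also varied with the GC content of transcripts. Over all genes the rank correlation of fold and GC content was -0.37 in MS751 (n = 12032) and -0.34 in SiHa (n = 12185), and over the 54 genes it was -0.30 and -0.24, as descriptions across genes that share their libraries. The members had a median GC content of 43.1%, against 48.9% over all SiHa genes. Members under 45% GC (31 genes) had a median fold of 0.47 in MS751 and 0.11 in SiHa, and the 23 others 0.27 and -0.043. With a smooth GC trend removed, the members' median was 0.33 in MS751 with 46 above 0, and 0.042 in SiHa with 30 above 0. After the same step all genes had a median of 0.044 in MS751, with 6421 of 12036 above 0, and of 0.029 in SiHa, with 6578 of 12189 above 0, so that the members in SiHa lay close to all genes. APEX1, FANCB, EXO1 and ATRIP were still at least 2-fold higher in MS751, and FANCI was at 0.97.

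**Figure D5:**
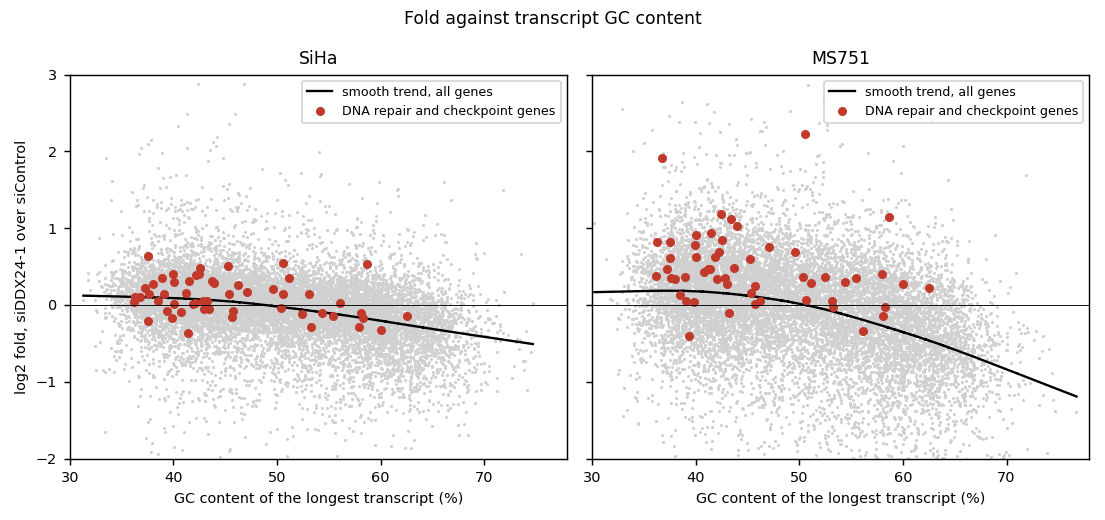
Log2 fold, siDDX24-1 over siControl, against GC content (%) of the longest transcript, in SiHa (left) and MS751 (right); red points are the 54 genes, grey points all genes (those beyond the axes are not drawn) and the line is the smooth trend over all genes. In MS751 most red points lie above the line, including those of APEX1 and FANCB at the top.

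Exons of 26 of the 54 genes overlap those of another protein-coding gene, and 28 overlap none. Past 2-fold in MS751 among these 28 were FANCB and EXO1. The 28 had a median fold of 0.47 in MS751 and 0.15 in SiHa. POLG, which overlaps FANCI, had 856 counts in the siDDX24-1 library and 1461 in the siControl library of MS751 (-0.91), and TREX1, which overlaps ATRIP, had 33 and 46 (-0.61). NPAT, which overlaps ATM, had 456 and 166 counts in MS751 (1.31) beside 446 and 391 for ATM. The share of reads that each pair could exchange was not tested, since the strand setting of the counting is not stated by the labels or notes.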

How the data were processed

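The authors deposited whole-number read counts per Ensembl gene, 1 table for each line, not normalized. The tools named, per the submitters' processing notes, are HISAT2 2.0.4, StringTie 1.3.4d and fastp 0.23.2, with the builds GRCh38.p12 and hg38 and no role for any. The counting program, its strand setting and annotation were not given in the sources used here. Each listed gene passed about 1 CPM in both libraries of its line (lowest 1.02), so genes silent in either are not in the tables. Repeated identifiers with identical values were dropped (70 copies in SiHa, 73 in MS751). Mitochondrially encoded genes took 9.61% of counts in the siDDX24-1 library and 8.13% in the siControl library of SiHa, and 12.15% in each library of MS751.

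From these counts, log2 CPM with TMM factors and a prior count of 1 were computed with edgeR 4.0.16 in R 4.3.3. For each count ratio an exact conditional 95% interval (Clopper-Pearson) was taken. The labels name no molecular identifiers, so PCR copies may count as separate molecules, and the intervals cover counting error at most. For the change shared by the lines, a quasi-likelihood test in edgeR had the line as a block (dispersion 0.0455, Benjamini-Hochberg over 11112 genes). Alternatives used DESeq2 1.42.0, limma 3.58.1, other scalings, prior counts, filters and a GC trend (mgcv 1.9.3). Positions, GC content and exon overlaps came from GENCODE 29 on GRCh38.

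The members and lists were chosen with earlier results of these data known. Named genes were members past 2-fold in either line or next to that threshold, called members, the highest and lowest mean fold per pathway, and members standing on opposite sides of 0 in the lines. Of other repair genes they were those past 2-fold alike in both lines and the highest and lowest per line. Further members were named after their values were seen. The labels do not say whether libraries came from separate cultures or days. A few genes are not reported here.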

Additional observations from a re-analysis of the deposited data

Results flagged for a closer look

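For 6 members the whole counting interval lay below 0 in SiHa and above 0 in MS751 (11.1%, against 5.98% of all genes). In these genes the single pair of libraries differed in opposite directions in the lines. The difference between the lines was not tested, since each group had 1 library. RAD50 had a log2 fold of 0.46 in MS751 and -0.36 in SiHa, and BRIP1 had 0.83 and -0.20. ERCC2 had 0.27 in MS751 and -0.32 in SiHa, FANCA 0.35 and -0.14, XPC 0.36 and -0.11, and MSH6 0.43 and -0.098. All of these values had the same sign under library totals, upper-quartile scaling and removal of the GC trend, which left FANCA at -0.030 and XPC at -0.053 in SiHa. The SiHa intervals of XPC, BRIP1, FANCA and MSH6 ended close to 0, at -0.00049, -0.0027, -0.011 and -0.012. Those of RAD50 and ERCC2 ended at -0.26 and -0.19. DESeq2 size factors moved SiHa folds by a median of 0.00405, more than the margins of XPC and BRIP1. The exons of RAD50, FANCA, MSH6, XPC and ERCC2 overlap those of another coding gene, and those of BRIP1 do not.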

How the results depend on the processing

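Beyond the common test, which pairs the libraries within each line, no paired analysis was possible because each group had 1 library and the labels give no replicate numbers, and leaving out a library leaves its line without a comparison. In SiHa the count of members at least 2-fold higher was 0 under 8 alternatives and 1 at a threshold of 1.5-fold. In MS751 it was 6 of 54 (against 3.74% of all genes). With the 26 overlapping genes left out it became 2 of the 28 that remained. At 1.5-fold it was 19 of 54 (against 13.7% of all genes). It was 5 with upper-quartile scaling, 5 with a mean of at least 5 CPM, which leaves out FANCB, and 4 with the GC trend removed. Counts of members at least 2-fold lower were 0 in both lines under every alternative run. The median fold of members kept its sign in all runs, between 0.32 and 0.47 in MS751 and between 0.017 and 0.15 in SiHa. The common test called 0 members higher, and 1 (APEX1, adjusted p = 0.0454) with DESeq2 in place of edgeR, and 0 under the 6 other alternatives. Single signs were less stable: removing the GC trend turned 8 members in MS751 and 11 in SiHa, and library totals turned 8 in SiHa. The causes of these changes were not tested. FANCB, with 19 counts in 1 library, was the least precise of the members past 2-fold.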
